A study of Mus musculus with 16 samples.

Results

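A set of 7 small structural RNAs was followed in left ventricle RNA-seq of mice with and without the M2 form of pyruvate kinase, PKM2. They were the Y RNAs Rny1 and Rny3, the minor spliceosomal RNA Rnu11, the vault RNA Vaultrc5, the RNase MRP RNA Rmrp, the 7SK RNA Rn7sk and the telomerase RNA Terc. The set was chosen by gene name, and Rny1, Rny3 and Rnu11 were chosen on their normalized counts, because the difference between genotypes had one sign at baseline and the other after myocardial infarction (MI). All 7 were among the 55492 genes listed, and all 7 passed the filter of a mean of at least 10 normalized counts over the 16 libraries, which 20576 genes passed. A normalized count is a gene's read count divided by the size factor of its library.

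The libraries came from male C57BL/6 mice aged 8 to 12 weeks. The control genotype was PKM2fl/fl, which carries the loxP-flanked Pkm allele. The other genotype, PKM2-/-, is a global knockout in which a CMV-driven Cre removed exon 10 of Pkm in the germline and the Cre allele was then bred out, so every cell type of the heart carried the deletion. Hearts of each genotype were taken without surgery (baseline, n = 2), 3 days after a sham operation (n = 3), or 3 days after permanent ligation of the left anterior descending artery (MI, n = 3). Read totals ran from 20623769 to 71855101 per library. Pkm as a whole gene was 7779 to 12076 normalized counts in PKM2fl/fl libraries and 10120 to 16113 in PKM2-/- libraries; most of its exons lie outside the deletion, so this does not check the genotype. Cardiomyocyte markers were high in all libraries, with a summed level of 638642 to 840008 normalized counts at baseline and after sham. After MI the same sum was 141555 to 335193, while the summed leukocyte markers went from 3477 to 8035 after sham to 16046 to 29977. In bulk tissue, a change in the number of cells of a type and a change in RNA per cell cannot be told apart.

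Y RNAs are short hairpin RNAs transcribed by RNA polymerase III and bound by the Ro60 and La proteins. They are known for roles in RNA quality control and DNA replication. U11, the product of Rnu11, pairs with the 5′ splice site of the rare minor-class introns. Vault RNA sits in the large cytoplasmic vault particle, Rmrp is the catalytic RNA of a nucleolar endoribonuclease that processes ribosomal RNA precursors, 7SK RNA holds the elongation factor P-TEFb in an inactive complex, and Terc is the template RNA of telomerase.

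The sequences that follow show what the reads have to tell apart, and which parts of these RNAs carry their known functions. The first pair is the Y RNAs, with capitals at the bases identical in their alignment. Next is Rnu11, with capitals at its match to an Sm protein binding site, A followed by 4 to 6 T and then G. The last is the first 100 bases of Terc, with capitals at the template for telomeric repeats. All are DNA letters of the GENCODE M39 transcripts.
Rny1: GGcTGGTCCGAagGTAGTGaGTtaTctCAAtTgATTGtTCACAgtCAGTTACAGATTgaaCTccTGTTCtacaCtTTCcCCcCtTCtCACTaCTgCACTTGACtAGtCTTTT
Rny3: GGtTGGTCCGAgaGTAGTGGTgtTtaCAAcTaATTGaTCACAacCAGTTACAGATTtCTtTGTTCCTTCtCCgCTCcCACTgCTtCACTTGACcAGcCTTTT
Rnu11: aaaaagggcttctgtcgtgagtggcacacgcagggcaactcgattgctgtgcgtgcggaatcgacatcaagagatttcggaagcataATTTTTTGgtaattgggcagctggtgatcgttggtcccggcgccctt
Terc: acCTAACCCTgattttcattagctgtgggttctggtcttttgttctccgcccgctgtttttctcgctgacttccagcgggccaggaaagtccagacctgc

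Rny1 and Rny3 share 81 of 112 aligned positions (72.3%) of their sequence, and the ends of each pair into the stem bound by Ro60. Both end in a run of 4 T, the usual stop signal of RNA polymerase III. On GRCm38, the assembly also called mm10, Rny3 lies at chr6:47781624-47781724 and Rny1 at chr6:47788070-47788180, with 6345 bases between them and on opposite strands. Rnu11 lies at chr4:132270079-132270186, Rmrp at chr4:43492785-43493059, Terc at chr3:96414437-96414833 and Rn7sk at chr9:78175302-78175633. In the GENCODE annotation the transcripts are 112 nt for Rny1, 102 nt for Rny3, 134 nt for Rnu11, 143 nt for Vaultrc5, 271 nt for Rmrp, 331 nt for Rn7sk and 397 nt for Terc. Each had 1 place in the GRCm39 genome that matched at 95% identity or more over at least 80% of its length, and at any identity 19 places, the gene itself included, covered Rny1 over that length.

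Several members overlap other genes. Rnu11 lies wholly within the exon of Gm28872 on the other strand, and the library kit does not mark strand. Gm28872 held the same number of reads as Rnu11 in 10 of 16 libraries and differed by at most 2 reads in the rest, so the 2 rows count the same reads. Rmrp shares 124 exonic bases with the protein-coding gene Ccdc107 on the other strand, and Ccdc107 held 67.6% to 80.8% as many reads as Rmrp in every library. For Rnu11, reads from the RNA and from its antisense partner cannot be told apart. For Rmrp this holds for reads that lie on the shared bases, which are only a part of its length. GENCODE M39 also lists long noncoding RNAs on the same strand, Gm67031 and Gm67032 over Rny3 (102 and 93 shared bases) and Gm70675 over Rnu11, for which no values were analysed here.

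Levels between the genes were compared per kilobase of transcript, as group means. Rn7sk was the most abundant, with 253349 to 459178 normalized counts per kilobase across the 6 groups, and Rmrp followed with 72546 to 204208. Rny3 (5028 to 38848) and Rny1 (3434 to 32280) overlapped each other in range, as did Vaultrc5 (705 to 2943) and Rnu11 (228 to 960). Terc was lowest, with 28.5 to 150.4 per kilobase, and rested on 6 to 118 reads per library.

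The Y RNAs had the widest swings. In PKM2fl/fl hearts Rny1 was 449.8 and 728 normalized counts at baseline, 735, 1180 and 1415 after sham, and 1800, 1877 and 2174 after MI. In PKM2-/- hearts it was 3049 and 4182 at baseline, 1074, 1247 and 1985 after sham, and 239, 379 and 535 after MI. The control levels were lowest at baseline and highest after MI, and the knockout levels ran the other way, with no overlap between genotypes at baseline or after MI and overlap after sham. The group means were 589 ± 197 (SD, n = 2) against 3615 ± 801 (n = 2) at baseline, and 1950.3 ± 197 (n = 3) against 385 ± 148 (n = 3) after MI.

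Rny3 followed the same course. In PKM2fl/fl hearts it was 368 and 933 normalized counts at baseline, 762, 991 and 1538 after sham, and 2503, 4297 and 5087 after MI. Rny3 in PKM2-/- hearts was 2807 and 3300.4 at baseline, 1046, 1228 and 2142 after sham, and 303, 537 and 699 after MI. The highest knockout library after MI was below the lowest control library after sham.

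Rnu11 was present at a much lower level, with 21 to 181 reads per library. In PKM2fl/fl hearts it was 33.0 and 49.8 normalized counts at baseline, 63.6, 77.9 and 78.1 after sham, and 95.4, 125 and 166 after MI. The PKM2-/- libraries held 101 and 138 at baseline, 53.1, 55.0 and 69.2 after sham, and 27.6, 30.3 and 33.7 after MI. The 3 knockout libraries after MI were the tightest group, 30.5 ± 3.05 (SD, n = 3), against 129 ± 35.2 in controls.

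Vaultrc5 was in the set by name alone, without a stated pattern. In PKM2fl/fl hearts it was 76.9 and 125 normalized counts at baseline, 197, 207 and 345 after sham, and 294, 476 and 493 after MI. Vaultrc5 in PKM2-/- hearts was 345 and 497 at baseline, 56.1, 192 and 296 after sham, and 92.3, 101 and 168 after MI. Its genotypes also did not overlap at baseline or after MI, in the same directions as the Y RNAs, and 1 knockout sham library lay far below the other 2.

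**Figure D1:**
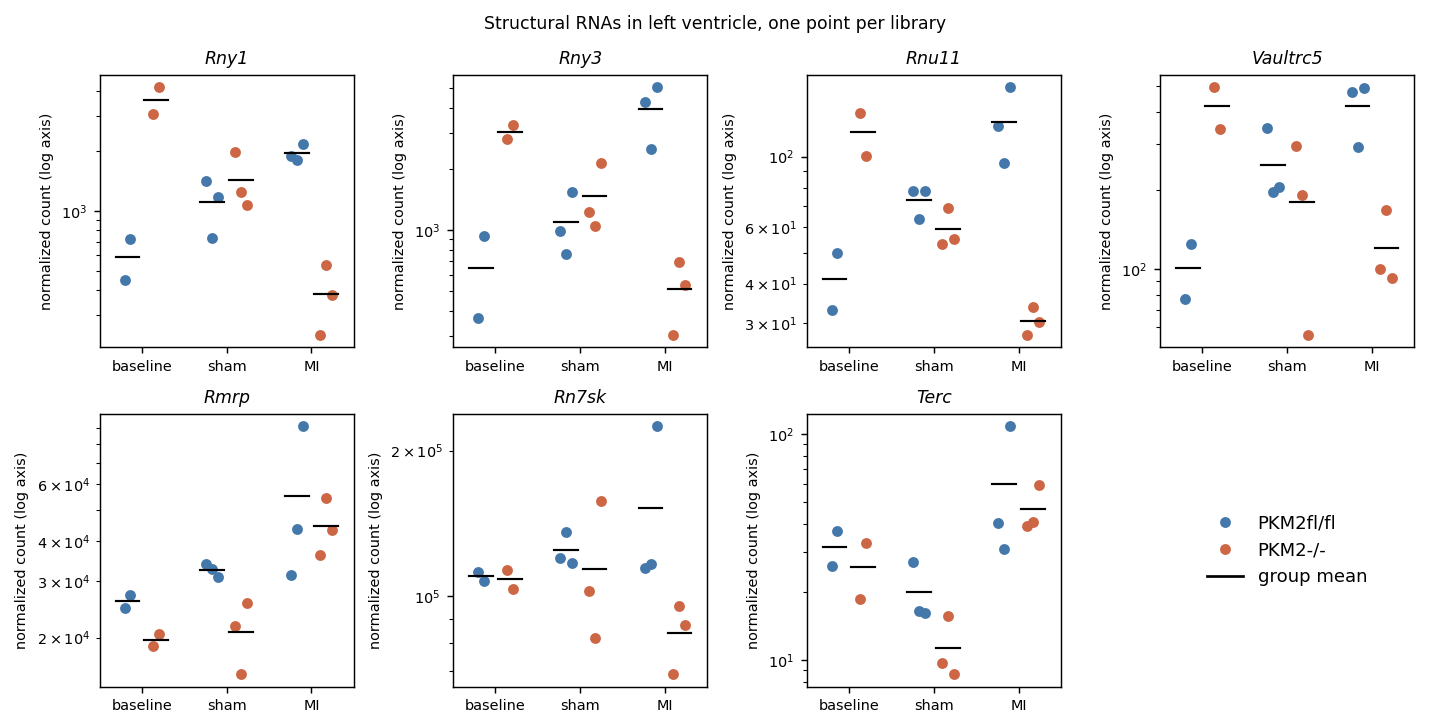
Normalized counts of the 7 RNAs in each library on a log axis, by condition (baseline n = 2, sham n = 3 and MI n = 3 per genotype); points are libraries (blue PKM2fl/fl, orange PKM2-/-) and black lines are group means. Rny1, Rny3, Rnu11 and Vaultrc5 were higher in PKM2-/- libraries at baseline and lower after MI, without overlap, and Terc was at 8.63 to 27.0 after sham and 31.1 to 107.9 after MI.

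On the log2(normalized count + 1) scale, PKM2-/- minus PKM2fl/fl at baseline was 2.64 for Rny1, 2.37 for Rny3, 1.52 for Rnu11 and 2.07 for Vaultrc5. After MI the same differences were -2.41, -2.97, -2.01 and -1.81, in that order. The baseline value of Rny3 was 1.71 without PKM2fl/fl replicate 1 and 3.04 without PKM2fl/fl replicate 2. These libraries chose the members, so the differences are given as a description with no test. The 4 genes were 4 of 7 members whose knockout libraries all lay above the controls at baseline, which held for 17.7% of all genes tested. After MI, 5 of 7 members lay wholly below the controls, the fifth being Rn7sk, against 8.26% of genes tested. Both held for 4 of 7 members and for 1.79% of genes tested, and nothing is read from these counts because the choice of members fixed 3 of them.

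Rmrp, Rn7sk and Terc had differences of one sign at all 3 conditions, although those of Rmrp and Terc after MI were small and did not keep their sign. With total read scaling Rmrp went from -0.99 at baseline to 0.18 after MI and Terc from -0.88 to 0.19, and without PKM2fl/fl MI replicate 3 the MI differences were 0.25 and 0.35. Rn7sk at baseline was 0.01 without PKM2fl/fl replicate 1 and 0.04 without PKM2-/- replicate 2, and Terc at baseline was 0.09 without PKM2-/- replicate 1. Rmrp was 24737 and 27242 normalized counts at baseline, 30882, 32627 and 33976 after sham, and 31309, 43667 and 91045 after MI in PKM2fl/fl hearts. The PKM2-/- values were 18832 and 20488 at baseline, 15370.0, 21708 and 25594 after sham, and 36055, 43139 and 54589 after MI. The knockout libraries lay below all controls at baseline and after sham and among them after MI. The log2 differences between genotypes were -0.40 at baseline, -0.67 after sham and -0.18 after MI.

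Rn7sk stayed within a narrow range for most libraries. It was 107679 and 112373 normalized counts at baseline, 117405, 119906 and 135993 after sham, and 114685, 116770 and 224509 after MI in PKM2fl/fl hearts. Knockout libraries were at 103496 and 113327 at baseline, 82168, 102532 and 157060 after sham, and 69022, 87123 and 95431 after MI. One control library after MI was nearly as high as the other 2 together, and it was the same library that was highest for Rmrp and Terc. The log2 difference between genotypes after MI was -0.80, against -0.02 at baseline.

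Terc was 25.9 and 37.2 normalized counts at baseline, 16.2, 16.4 and 27.0 after sham, and 31.1, 40.2 and 107.9 after MI in PKM2fl/fl hearts. In PKM2-/- hearts it was 18.6 and 33.0 at baseline, 8.63, 9.65 and 15.7 after sham, and 38.9, 40.6 and 59.1 after MI. In both genotypes every MI library was above every sham library. The genotypes did not overlap after sham and overlapped at baseline and after MI.

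**Figure D2:**
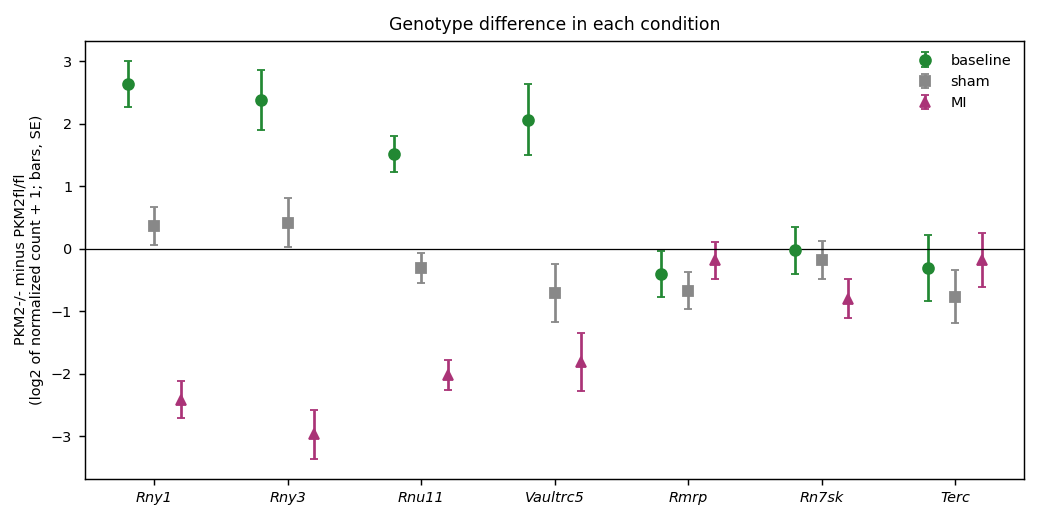
PKM2-/- minus PKM2fl/fl for each RNA at baseline (circles), after sham (squares) and after MI (triangles), on the log2(normalized count + 1) scale; bars are the standard error of the limma fit. Rny1, Rny3, Rnu11 and Vaultrc5 lie between 1.52 and 2.64 at baseline and between -2.97 and -1.81 after MI, whereas Rmrp, Rn7sk and Terc stay between -0.80 and -0.02.

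The sham libraries were not used to choose the members, so the genotype difference after sham was tested. A gene was called when the limma fit over all 16 libraries gave a Benjamini-Hochberg adjusted p below 0.05 and a change of at least 2-fold. No member was called, where 0.00486% of genes tested were, which is the single gene Abat. The limma differences were 0.37 (95% CI -0.27 to 1.02) for Rny1, 0.41 (-0.42 to 1.25) for Rny3, -0.31 (-0.82 to 0.20) for Rnu11 and -0.71 (-1.69 to 0.28) for Vaultrc5. The value of Vaultrc5 was -0.02 without PKM2-/- sham replicate 3 and -1.21 without PKM2-/- sham replicate 1. Rmrp (-0.67, -1.31 to -0.03) had an unadjusted limma p of 0.0419 and an adjusted p of 0.478. With edgeR on the recovered reads without a filter, Rmrp was at -0.66 with an edgeR adjusted p of 0.0205, under 2-fold. For Rn7sk the difference was -0.18 (-0.84 to 0.48) and for Terc -0.76 (-1.68 to 0.15). The smallest adjusted p from limma was that of Rmrp and the largest 0.927, for Rn7sk. One of the 7 had an unadjusted p below 0.05 by limma, and 0 of 7 were called by edgeR or by DESeq2 on the recovered reads. Rmrp and Terc were 2 of 7 members whose genotypes did not overlap after sham, against 16.5% of genes tested. The sham intervals for Rny1, Rny3, Rnu11 and Vaultrc5 all included 0 and reached at most 1.25 above and 1.69 below it.

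Whether infarction changed these RNAs was tested as MI minus sham, averaged over the genotypes, a comparison that does not use the difference between genotypes. Terc rose by 1.66 on the log2 scale (SE 0.30, limma adjusted p = 0.000177), a 3.16-fold change, and was called. As background, 27.0% of genes tested were called in either direction, and 13.9% were called as higher after MI. Rmrp rose by 0.86 (SE 0.21, limma adjusted p = 0.00218), a 1.82-fold change that was under the 2-fold threshold. Rny1 differed by -0.53 (SE 0.21, limma adjusted p = 0.0394), also under 2-fold, and its adjusted p was below 0.05 in 10 of 21 other ways of running the comparison. An adjusted p below 0.05 without the fold threshold was given by 65.7% of genes tested. The remaining averages were 0.16 for Rny3 (95% CI -0.43 to 0.75), -0.08 for Rnu11 (-0.44 to 0.29), 0.21 for Vaultrc5 (-0.49 to 0.91) and -0.09 for Rn7sk (-0.56 to 0.37). Terc was called, and Rmrp and Rny1 passed the adjusted p, by edgeR and DESeq2 as well. Leukocyte and fibroblast markers were higher after MI (4 of 6 and 3 of 5 called) and cardiomyocyte markers lower (4 of 5 called). Summed fibroblast markers went from 20865 to 38524 normalized counts after sham to 115187 to 154445 after MI, and the other sums are given above. The part of these cell types in the Terc and Rmrp differences was not tested.

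The average hides opposite courses within the genotypes for the Y RNAs and Rnu11. From sham to MI, Rny1 differed by 0.86 in PKM2fl/fl hearts and by -1.92 in PKM2-/- hearts on the log2 scale. For Rny3 the values were 1.85 and -1.53, and for Rnu11 0.78 and -0.93. Vaultrc5 was at 0.76 and -0.34, but its MI and sham libraries overlapped in both genotypes. Terc differed by 1.37 and 1.96 and Rmrp by 0.62 and 1.10, with the same sign in both genotypes. The MI libraries chose the first 3 genes, so these values within a genotype have no test.

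The operation itself was examined as sham minus baseline, averaged over genotypes, and no member was called where 2.26% of genes tested were. Terc was -0.88 (95% CI -1.61 to -0.16, limma adjusted p = 0.148), and the other 6 lay between -0.23 and 0.19. By limma 1 of 7 had an unadjusted p below 0.05, and edgeR and DESeq2 each called 0 of 7.

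**Figure D3:**
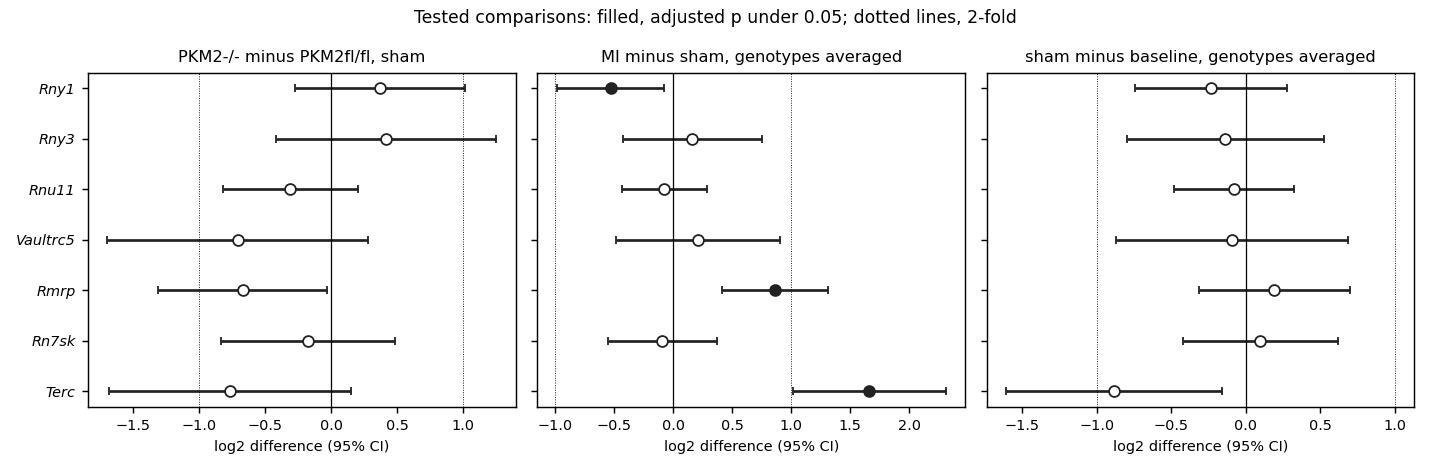
The 3 tested comparisons for each RNA with 95% confidence intervals from limma, on the log2 scale: genotype after sham, MI minus sham, and sham minus baseline, the last 2 averaged over genotypes; filled points had an adjusted p under 0.05 and dotted lines mark 2-fold. Filled points are Rny1 (-0.53), Rmrp (0.86) and Terc (1.66) in MI minus sham.

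The 4 RNAs whose genotype difference changed sign were also the 4 shortest members, at 102 to 143 nt, and the other 3 were 271 to 397 nt. The split rests on the GENCODE lengths, since the RefSeq entry of Vaultrc5 is 345 bases, longer than those of Rmrp (275) and Rn7sk (332). The pattern was seen after the values, so all 145 small structural RNAs that passed the filter were described by length, with no test. They comprised small nuclear, small nucleolar and Cajal body RNAs, ribozymes and miscellaneous RNAs of the annotation, with Terc. Among 77 RNAs of 100 to under 150 nt, the median difference between genotypes was 0.98 at baseline, -0.61 after sham and -0.78 after MI. For RNAs under 100 nt the medians were 0.02, 0.07 and -0.11, in that order. For 150 to under 200 nt they were 0.28, -1.02 and -0.42, and for 200 nt or more -0.23, -1.07 and -0.41. The negative medians after sham and MI were thus shared by the longer classes. In 24 of the 77 (31.2%) the knockout libraries lay wholly above the controls at baseline and wholly below them after MI, and in 20 of 73 (27.4%) once the 4 members were left out. The share over all genes tested was 1.79%. Among 21 RNAs under 100 nt and 22 of 150 to under 200 nt none changed in this way, and among 25 of 200 nt or more 1 did, Gm24514. By sign alone, with overlap allowed, 58 of the 77 were higher in the knockout at baseline and lower after MI. The same held for 8 of 21 under 100 nt, 10 of 22 of 150 to under 200 nt and 7 of 25 of 200 nt or more. Gm25679, of 164 nt, went from 3.66 at baseline to -2.05 after MI, so large changes of sign were not confined to 1 class. Some of the 24 may be copies of 1 RNA, since Rnu5g, Gm23143, Gm24871, Gm25099 and Gm25313 are all small nuclear RNAs of 116 nt.

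Examples with gene names were taken from the 20 that changed sign without overlap. They included Rnu5g, a U5 RNA of the major spliceosome, with 2.33 at baseline, 0.10 after sham and -1.53 after MI. Snord118, the U8 RNA needed to process ribosomal RNA, was at 1.70, -0.76 and -1.12. The mean of Snord118 over the libraries without MI was 7.35, so it passed the filter only through the MI libraries. Snord118 is counted in the 20 but is no support for the pattern. The other RNAs of the 20 were not checked in this way, and nothing is read from their count. Some had means little above the filter of 10, such as Snora47 (11.6), Gm25313 (12.7), Snord89 (12.8) and Rnu5g (14.7). Snora7a was at 1.79, -1.07 and -0.75. Snord13 was at 1.78, -0.53 and -1.37. After sham these 4 had differences of -1.07 to 0.10, a range that took in Rnu11 and Vaultrc5 and lay below the Y RNAs. Other RNAs of that length were higher in the knockout at both times, such as Gm25848 (0.69 at baseline and 2.79 after MI), Snord22 (1.42 and 0.19) and Snora9 (1.41 and 0.66).

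**Figure D4:**
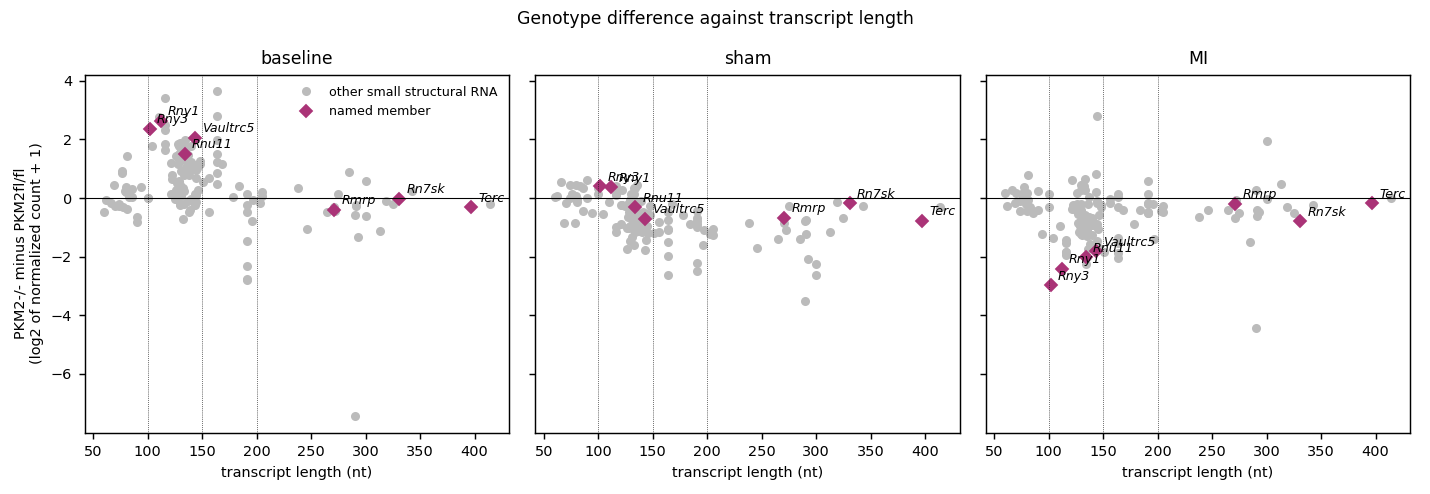
PKM2-/- minus PKM2fl/fl on the log2(normalized count + 1) scale against transcript length for the 145 small structural RNAs, at baseline, after sham and after MI; diamonds are the 7 members, grey points the other RNAs and dotted lines mark 100, 150 and 200 nt. In the class of 100 to under 150 nt the median goes from 0.98 at baseline to -0.78 after MI. In the classes of under 100, 150 to under 200, and 200 nt or more it goes from 0.02, 0.28 and -0.23 to -0.11, -0.42 and -0.41.

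The share of reads on ribosomal RNA and related loci, which the depletion step leaves behind, differed between libraries. It was 17.3% and 22.2% in PKM2fl/fl and 40.3% and 44.5% in PKM2-/- libraries at baseline. After sham it was 15.9% to 28.0% against 29.0% to 47.0%, and after MI 20.1% to 47.7% against 16.2% to 35.6%. The baseline difference thus ran the same way as that of the Y RNAs, and after MI the genotypes overlapped. After sham every PKM2-/- library had a higher share than every control, and the Y RNA counts of the genotypes overlapped. With counts scaled to the reads outside these loci, baseline and MI differences of Rny1, Rny3, Rnu11 and Vaultrc5 kept their signs. That scaling shifts all genes of a library alike, so it is no test of a part of residual ribosomal RNA. The part of residual ribosomal RNA in these differences was not tested.

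The genes with the most similar course over the 16 libraries were found by Pearson's r on the log2 scale, as a description over libraries that share their groups. For Rny1 these were Rny3 (0.88), Rnu11 (0.88) and Gm20594 (0.88), and for Rny3 the small nucleolar RNA Gm26397 (0.93), Rnu11 (0.91) and Gm28872 (0.91). For Rnu11, beside Gm28872, which counts the same reads, they were Rny3 and Rny1. Vaultrc5 was closest to Snord13 (0.87), the small nuclear RNA Gm25099 (0.87) and Rnu11 (0.83). Rmrp was closest to Ccdc107 (0.99), which shares its reads, to Gm26448 (0.96) and to the histone gene H2bc6 (0.95). Rn7sk was nearest to Gm26035 (0.89), Smpdl3a (0.83) and Gm24447 (0.83), and Terc to Cdyl (0.94), Nemp2 (0.93) and Uevld (0.93). With the group means removed, which leaves 10 degrees of freedom, r was 0.54 for Rny1 and Rny3 and 0.57 for Rny3 and Rnu11. For Rmrp and Rn7sk r was 0.89, where PKM2fl/fl MI replicate 3 was the highest library for both, and r was not taken without it. A lower r was found for Rny1 with Rnu11 (0.37) and for Vaultrc5 with Rnu11 (0.47). For Vaultrc5 it was -0.0032 with Rny3 and 0.63 with Rny1.

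Protein partners of the members were read from lists chosen by function. After sham, limma called no gene between genotypes in any of the 11 lists, which held 190 genes tested; 34 had an unadjusted p below 0.05, edgeR called 0 and DESeq2 called 6. Over all genes tested 9.95% had an unadjusted p below 0.05, and DESeq2 called 0.568% of the genes to which it gave an adjusted p. Their genotype differences at baseline and after MI, where the Y RNAs had the largest differences, are given with no test. Among 10 Y RNA partners, such as Ro60 and Ssb (La), the median difference between genotypes was 0.03 at baseline, with a range of -0.88 to 0.20, and 0.11 after MI, with a range of -0.34 to 0.59. For 29 subunits and factors of RNA polymerase III, which transcribes the Y RNAs, Vaultrc5, Rmrp and Rn7sk, the medians were -0.02 and -0.03, with a range of -0.14 to 0.27 at baseline and -0.27 to 0.23 after MI.

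After MI against sham, averaged over genotypes, the median over all genes tested was 0.01, and the counts of list members are read beside the 27.0% of genes called. None of 5 vault genes was called by limma, edgeR or DESeq2 (median 0.37), although all 5 had a limma adjusted p below 0.05, and 1 was called with each of the scalings to total reads and to reads outside ribosomal RNA. Tep1, the protein shared by vaults and telomerase, was at 0.83 (limma adjusted p = 7.77e-08). Of 13 RNase MRP and RNase P genes 1 was called (median 0.07), the protein subunit Rpp25, at 1.73. None of 12 genes of the 7SK complex was called by limma, edgeR or DESeq2, while 7 had a limma adjusted p below 0.05. Their median was -0.05 and became 0.11 and 0.21 with the scalings to total reads and to reads outside ribosomal RNA. Ddx21, a helicase that releases P-TEFb, was at 0.70.

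Of 17 telomerase genes tested 1 was called (median 0.41), Tert, the reverse transcriptase that copies the Terc template shown above. With the same scalings, 2 and 3 were called. The log2 difference of Tert was 3.56 (SE 0.58, limma adjusted p = 6.63e-05). Tert was 0 to 12.3 normalized counts after sham and 14.6 to 64.0 after MI, from 0 to 12 reads and 18 to 70 reads per library. Its mean over the libraries without MI was 5.10, so Tert passed the filter of a mean of 10 only through the MI libraries, and nothing is read from its being called.

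Of 14 genes of the minor spliceosome, the machinery that uses U11, 1 was higher and 1 lower after MI. The median was -0.19, and it was 0.08 with scaling to reads outside ribosomal RNA. Armc7 rose by 1.44 and Zrsr1, a U2AF-like splicing factor, fell by 1.31. Rnu12, the U12 RNA that forms a complex with U11, was named after its values were seen. In PKM2fl/fl hearts Rnu12 was 107 and 355 normalized counts at baseline, 179.6, 251 and 400.02 after sham, and 212, 532 and 549 after MI. In PKM2-/- hearts it was 262 and 318 at baseline, 51.4, 144 and 208 after sham, and 85.9, 89.4 and 173 after MI. It lay below the controls after MI without overlap, as Rnu11 did, but overlapped them at baseline.

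Among 12 other small structural RNAs tested, 3 rose, the U3 RNA copies Rnu3a (1.60), Rnu3b1 (1.69) and Rnu3b3 (1.68), and 1 fell, the signal recognition particle RNA Rn7s2 (-1.28); these are multicopy genes whose reads may be split. Of 51 small nucleolar and Cajal body RNAs 8 rose and none fell. For 7 of the 8, Snord80 (2.03) and Snord12 (1.97) among them, the mean over the libraries without MI was below 10, so they passed the filter only through the MI libraries and the count is no support for a rise of the group. The other was Snora57 (1.40). Their median was 0.32, and 14 and 15 rose with the scalings to total reads and to reads outside ribosomal RNA. Of 21 mitochondrial tRNAs 19 fell and none rose, with mt-Ti at -2.31 and a median of -1.61. Cardiomyocyte markers fell with them (4 of 5 called, none at 0), from a summed 638642 to 840008 normalized counts at baseline and after sham to 141555 to 335193 after MI, and their part in the tRNA differences was not tested. Of 8 ribosomal RNA-related loci tested 1 rose, Mir6236 (2.40), with a median of 1.74, whereas edgeR, DESeq2 and both scalings each called 6 as higher. In sham minus baseline, 1 gene of all the lists was called, the nucleic acid sensor Zbp1, at 2.47 (limma adjusted p = 0.00418).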

How the data were processed

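RNA of left ventricle was depleted of rRNA, made into libraries with a kit that does not mark strand, and sequenced as read pairs. The authors used PRINSEQ for trimming, HISAT2 for alignment against mm10, featureCounts for counts per gene and DESeq2 for normalization (tool versions and settings for strand and multiple hits are not given in the sources used here). The deposited signal values are counts divided by a size factor per library; dividing by each library's smallest value gave whole reads (within 0.01) for 100% of values, which served edgeR and DESeq2 as alternatives. The deposited table also holds the authors' log2 fold change, its standard error, a Wald score, a p-value and an adjusted p-value for their comparison, which were not used.

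The members and lists were chosen with earlier results of these data known. Values were tested as log2(value + 1) with limma 3.58.1 in R 4.3.3, one mean per group, over 20576 genes, with residual degrees of freedom of 10. edgeR 4.0.16 and DESeq2 1.42.0 were alternatives, as were 2 scalings, a pseudocount of 0.1, no filter, a replicate block and leaving out each library. Named genes are the members, called genes of each list (at most 3, else the 1 with the smallest p), and the 3 genes closest to each member; results after MI for 2 of the lists are not reported here. Lengths and strands came from GENCODE M39, coordinates from RefSeq on GRCm38.p6, alignment from Biopython 1.88 and genome matches from BLAST 2.17.0. Scripts were tested on simulated data. Series text calls libraries biological replicates. Replicates differed beyond counting noise (mean chi-square per gene of 15.1 or more), so none was counted as a duplicate.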

Additional observations from a re-analysis of the deposited data

Results flagged for a closer look

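For 4 RNAs the difference between genotypes pointed in opposite directions at baseline and after MI, with every PKM2-/- library above the controls at baseline and below them after MI. The change of the difference, MI minus baseline on the log2 scale, was -5.05 for Rny1, -5.34 for Rny3, -3.53 for Rnu11 and -3.88 for Vaultrc5. The change was not tested, because Rny1, Rny3 and Rnu11 were chosen for it.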

How the results depend on the processing

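The averages of Terc and Rmrp in MI minus sham kept their sign and an adjusted p below 0.05 in all 21 alternatives run, with ranges of 1.40 to 1.93 and 0.65 to 1.13. Rmrp passed 2-fold with total read scaling (1.03), with scaling to reads outside rRNA-related loci (1.13) and without PKM2fl/fl MI replicate 1 (1.03). The adjusted p of Rny1 reached 0.29, was 0.0549 with the replicate block, and was 0.0566 to 0.113 without PKM2fl/fl sham replicate 1 or 3, PKM2fl/fl MI replicate 1 or 2, PKM2-/- sham replicate 1 or PKM2-/- MI replicate 1 or 3. The median of all genes, 0.01 in MI minus sham and -0.01 between sham genotypes, became 0.18 and -0.33 with total read scaling, and 0.28 in MI minus sham with scaling outside rRNA-related loci. Higher and lower calls in MI minus sham were then 3621 and 2191, or 4065 and 1871, against 2852 and 2709. Rnu11 in MI minus sham became 0.0867 and 0.187 and Rn7sk 0.0755 and 0.176 with these 2 scalings, and Rnu11 in sham minus baseline became 0.00249 with total reads. Vaultrc5 in sham minus baseline became 0.0172 by edgeR with and 0.0200 without a filter, 0.0439 by DESeq2 and 0.113 with the replicate block, and Rn7sk became -0.0455 with the block; the cause was not tested. Leaving out 1 library, MI minus sham ran from -0.175 to 0.0228 for Rnu11, -0.135 to 0.46 for Vaultrc5 and -0.252 to 0.0368 for Rn7sk. Sham minus baseline ran from -0.47 to 0.20 for Rny3, -0.225 to 0.0647 for Rnu11, -0.345 to 0.25 for Vaultrc5 and -0.0319 to 0.202 for Rn7sk, and the sham genotype difference of Rn7sk from -0.436 to 0.0314. Genotype calls after sham, 1 in the values reported, were 114 with total read scaling, 0 with scaling outside rRNA-related loci, 305 by edgeR without a filter, 111 by DESeq2, 5 without the filter on low values, 9 with the compared libraries alone, 0 with the replicate block and 0 to 50 on leaving out 1 library, 50 being without PKM2-/- sham replicate 3, 3 and 0 without PKM2fl/fl sham replicate 1 and 2, and 2 and 0 without PKM2-/- sham replicate 1 and 2. Calls in sham minus baseline, 466, were 730 by edgeR without a filter and 216 without the filter on low values. Equal replicate numbers gave no sign of pairing over all genes tested, as the correlations of their deviations were -0.09 to 0.13 over 14 pairs. The baseline pairs of replicate 1 and of replicate 2 hold the same value (-0.05), because deviations in groups of 2 libraries mirror each other. Pairing that acts on a few genes would not be seen in these correlations. At baseline and after MI Rny1, Rny3, Rnu11 and Vaultrc5 kept their sign in every alternative, the values closest to 0 being 0.94 at baseline (Rnu11) and -1.45 after MI (Vaultrc5). Leaving out 1 library could not change these signs, because the genotypes of these genes did not overlap. Rny1, Rny3 and Rnu11 were also chosen for these signs, so no support is drawn from their being kept. Without PKM2fl/fl MI replicate 3, the MI genotype differences of Rmrp and Terc became 0.25 and 0.35. Terc rests on 6 to 118 reads and Rnu11 on 21 to 181, and baseline groups held 2 libraries each.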

Other observations

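Rprl3, a copy related to the RNase P RNA gene Rpph1, was either nearly absent or abundant, and it was named after its values were seen. It held 6838 reads in PKM2fl/fl baseline replicate 1, 10458 in PKM2fl/fl sham replicate 3 and 11734 in PKM2fl/fl MI replicate 3. The other 13 libraries, among them all PKM2-/- libraries, held at most 8 reads. Rpph1 itself had 29810 to 143586 reads in every library, and in those 3 libraries Rprl3 amounted to 8.17% to 11.2% of it.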
